A study of Mus musculus with 24 samples.

Results

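The 10 genes described here carry iron into, through and out of cells or set how much of it cells take up and store: the importers Tfrc, Slc11a2 and Slc39a14, the ferritin genes Fth1 and Ftl1, the exporter Slc40a1, the ferroxidase Cp, the hormone gene Hamp and the iron sensors Aco1 and Ireb2. They were chosen by name, with earlier results of these data known. All 10 had a probe, and each had 1 probe only, among 19505 distinct genes named on the array. Each gene is described by the log2 values deposited for its probe.

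The kidneys came from 10-week-old males of C57BL/6N, an inbred mouse strain. Rhabdomyolysis, in which damaged muscle releases myoglobin that reaches the kidney, was caused by 50% glycerol injected into the calf. Sham animals went through everything but the glycerol step. An oligonucleotide was injected under the skin at 20 mg/kg, 24 h ahead of that step, and was either anti-miR-22 or a mock with altered bases. The groups were sham mock (n = 5), sham anti-miR-22 (n = 5), rhabdomyolysis mock (n = 7) and rhabdomyolysis anti-miR-22 (n = 7). In all groups water was withheld for 23 h, the analgesic carprofen was given at 5 mg/kg, and kidneys were halved and frozen 24 h after the glycerol step. The protocol gives a mild glycerol dose of 0.05 ml and a severe one of 0.07 ml per 10 g of body weight, and the labels do not say which these animals received. Animals given no oligonucleotide were not part of the arrays, so every comparison is between animals that carried one. Whether each array holds a different animal is not stated, and the tests therefore rest on the spread between samples, which could be technical.

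Both oligonucleotides are shown because every comparison between treatments rests on the bases by which they differ, in capitals below. The differences, read from anti-miR-22 to mock and numbered from 1 at the 5′ end, are T3A, A5T, T8A and A12T. Anti-miR-22 pairs at all 15 bases with bases 2 to 16 of miR-22-3p, a stretch that holds the 7 bases of the seed, and the mock pairs at 11 of these 15. The seed is the part of a microRNA that pairs with its targets, and it is in capitals in the RefSeq sequence of the mouse microRNA (GRCm38.p6, chr11:75463772-75463793, plus strand).
anti-miR-22: ctTcAacTggcAgct
mock: ctAcTacAggcTgct
miR-22-3p: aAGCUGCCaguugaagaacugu

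Iron bound to transferrin enters cells through the transferrin receptor, encoded by Tfrc, and leaves the endosome through the divalent metal transporter encoded by Slc11a2, while the zinc and iron transporter encoded by Slc39a14 takes up iron that is not bound to transferrin. Ferritin, a shell of heavy (Fth1) and light (Ftl1) chains, stores iron, and ferroportin, encoded by Slc40a1, exports it with the help of ferroxidases such as ceruloplasmin, encoded by Cp. Hepcidin, the liver hormone encoded by Hamp, binds ferroportin and sends it for breakdown. The iron regulatory proteins, encoded by Aco1 and Ireb2, bind iron-responsive elements when iron is low, which protects Tfrc mRNA and blocks the translation of ferritin mRNA. In the kidney, the proximal tubule takes up filtered heme proteins such as myoglobin, and heme oxygenase frees the iron of their heme. Arrays measure mRNA, so the translational arm of this control is not seen here.

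The libraries carried the marks of kidney and of injury. Markers of the proximal tubule, thick limb and collecting duct were bright in sham kidneys, with mean log2 levels per list of 17.0 to 17.3, 14.3 to 14.7 and 10.0 to 10.4. Hmox1, the heme oxygenase gene, lay between 10.51 and 11.89 in the 10 sham arrays and between 15.68 and 16.46 in the 14 rhabdomyolysis arrays. 1 sham mock array, replicate 1, stood apart in tubular injury genes, with Havcr1 at 14.59 where the other sham arrays lay between 6.41 and 7.74 and Lcn2 at 13.70 where they lay between 7.75 and 8.94. Without it, every called member difference kept its direction and its call.

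The first question was how glycerol injury moved these genes under the mock oligonucleotide. 5 members rose (Cp, Slc40a1, Tfrc, Slc39a14 and Ftl1), 2 fell (Aco1 and Ireb2) and 3 did not pass the test (Slc11a2, Fth1 and Hamp), by limma with adjustment over all 22205 probes. Of all probes, 34.4% were called in this comparison, 18% higher and 16.4% lower. The median difference of the members was 0.37 on the log2 scale, and that of all probes was -0.00. In 4 of the 10 members the rhabdomyolysis and sham arrays did not overlap, as did 21.2% of all probes.

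**Figure D1:**
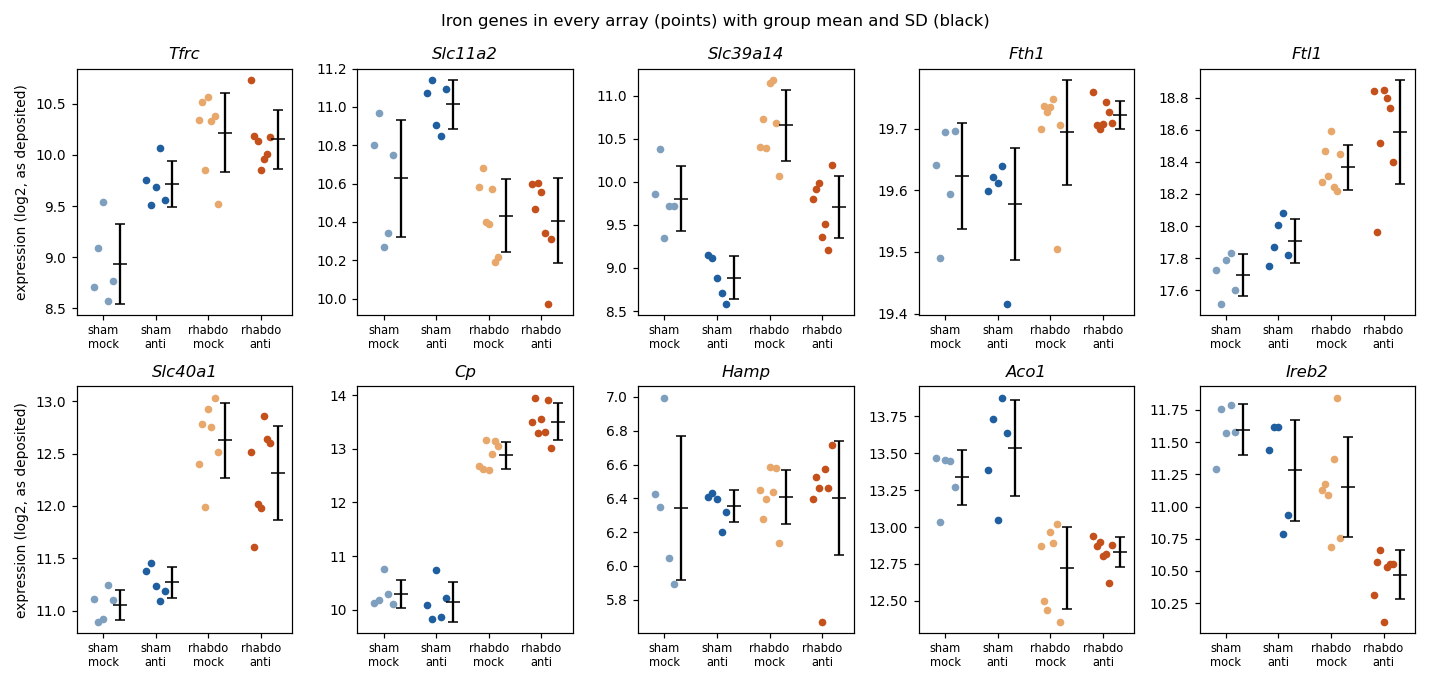
Deposited log2 expression of the 10 iron genes, 1 point per array and 1 panel per gene with its own vertical scale, in sham mock (n = 5), sham anti-miR-22 (n = 5), rhabdomyolysis mock (n = 7) and rhabdomyolysis anti-miR-22 (n = 7); the black bars are the group mean and SD. Cp and Slc40a1 sit apart in sham and rhabdomyolysis arrays, Slc39a14 is lower with anti-miR-22 in both states, and Fth1 spans 0.34 in all.

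Among the importers, Tfrc was low in the sham mock arrays, at 8.70, 9.09, 9.54, 8.57 and 8.76 in replicates 1 to 5. In the rhabdomyolysis mock arrays its lowest, median and highest values were 9.52, 10.35 and 10.57, so that the groups met at 1 array each, sham mock 3 and rhabdomyolysis mock 7. Tfrc rose 2.44-fold (log2 1.28 ± 0.18, SE, limma adjusted p = 1.14e-06). Slc39a14 was at 9.86, 10.38, 9.35, 9.72 and 9.72 in the sham mock arrays and between 10.06 and 11.18, with a median of 10.68, in the rhabdomyolysis mock arrays. It rose 1.80-fold (0.85 ± 0.20, adjusted p = 0.000846), with sham mock 2 inside the range of the injured group. Slc11a2, by contrast, ran from 10.27 to 10.97 in sham mock and from 10.19 to 10.68 in rhabdomyolysis mock arrays. Its difference of -0.19 ± 0.14 did not pass (limma adjusted p = 0.325, 95% interval -0.48 to 0.09).

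Of the storage genes, Ftl1 rose and Fth1 did not pass. Ftl1, the light chain gene, was at 17.73, 17.52, 17.79, 17.83 and 17.60 in the sham mock arrays, and its lowest, median and highest rhabdomyolysis mock values were 18.22, 18.31 and 18.59. All 7 injured arrays lay above all 5 sham arrays, a 1.59-fold rise (0.67 ± 0.14, adjusted p = 0.000197). Fth1, the heavy chain gene whose product oxidises iron as it enters the shell, ranged from 19.49 to 19.70 in sham mock and from 19.50 to 19.75 in rhabdomyolysis mock arrays. Its difference was 0.07 ± 0.10 (limma adjusted p = 0.647, 95% interval -0.13 to 0.27). The 24 Fth1 values lay between 19.42 and 19.76, and the highest value of any probe on any array was 19.92, so the probe was near the top of the deposited scale; whether it can register a rise there was not tested. The mouse gene table lists 3 pseudogenes of the light chain and 2 of the heavy chain, and how far their transcripts reach these probes was not tested.

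The exporter gene and the ferroxidase gene both rose. Slc40a1 was at 11.11, 10.90, 10.92, 11.24 and 11.10 in the sham mock arrays, and its lowest, median and highest rhabdomyolysis mock values were 11.99, 12.75 and 13.03. The groups did not overlap, and the rise was 2.98-fold (1.57 ± 0.18, adjusted p = 2.75e-08). Cp, the ferroxidase gene, was at 10.12, 10.19, 10.76, 10.29 and 10.12 in sham mock and between 12.60 and 13.17, with a median of 12.90, in rhabdomyolysis mock arrays. Every injured array was above every sham array, and the difference of 2.59 ± 0.17 (6.01-fold, adjusted p = 2.51e-13) had the largest size among the members. Hamp stayed between 5.89 and 7.00 in sham mock and between 6.14 and 6.59 in rhabdomyolysis mock arrays, close to the array medians of 5.75 to 5.86, with a difference of 0.07 ± 0.17 (limma adjusted p = 0.809, 95% interval -0.27 to 0.40). No detection call was used, so whether kidney Hamp is measured above background is not known.

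Both sensor genes fell. Aco1, whose product is an iron regulatory protein when it lacks its iron-sulfur cluster and cytosolic aconitase when it holds one, was at 13.47, 13.04, 13.46, 13.45 and 13.27 in the sham mock arrays and between 12.36 and 13.02, with a median of 12.87, in the injured ones. The groups were apart by a narrow margin, and the fall was 1.53-fold (-0.62 ± 0.15, adjusted p = 0.00106). Ireb2, whose product is removed when iron is plentiful, had sham mock values of 11.29, 11.76, 11.57, 11.79 and 11.58 and rhabdomyolysis mock values from 10.69 to 11.85 with a median of 11.13. Its fall of -0.45 ± 0.18 was near the threshold (limma adjusted p = 0.0475), rhabdomyolysis mock 6 was above every sham mock array, and the call ended in 18 of 32 alternatives, 16 of them the omission of 1 array (adjusted p up to 0.116).

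Markers listed for cell types moved in the same arrays. In halved kidneys, fewer cells of a type and less RNA per cell cannot be told apart. Of 10 proximal tubule markers 9 fell with glycerol under mock, and the list's mean level was 17.07 to 17.23 in sham mock and 15.43 to 16.22 in rhabdomyolysis mock arrays. All 7 markers of the thick limb and distal tubule fell, with a median difference of -2.87 where that of the proximal tubule was -1.45 (mean level 14.32 to 14.69 against 10.21 to 10.80). Of 7 collecting duct markers 5 fell, with a median of -0.84 (9.98 to 10.16 against 8.64 to 9.32). The part of these 3 lists in the falls of Aco1 and Ireb2 was not tested. Macrophages, which recycle red cell iron, also carry ferroportin. Of the 11 measured genes in the macrophage list 3 rose, all complement C1q chains, and 2 fell. The largest falls in group mean were those of Mertk (10.69 in sham mock, 8.66 in rhabdomyolysis mock) and Csf1r (9.09 and 8.41). The mean level of that list was 5.94 to 6.28 in sham mock and 6.06 to 6.31 in rhabdomyolysis mock arrays. Of 8 measured neutrophil markers 5 rose (mean level 3.95 to 4.20 against 4.30 to 4.77). The list was dim: S100a8, Mmp8, Camp and Ngp had sham mock means of 3.21 to 3.64, below the lower quartiles of the arrays. Of 4 measured red cell markers 2 fell (5.59 to 5.94 against 5.14 to 5.59). Slc4a1 of these 4 is also a collecting duct marker. Epb42 (3.94 in sham mock, 4.20 in rhabdomyolysis mock) and Klf1 (4.22 and 3.84) lay near those quartiles. The part of the macrophage, neutrophil and red cell lists in the rises of Tfrc and Slc40a1 was not tested. For Cp and Hamp, which the liver makes in quantity, 1 of 9 genes listed as hepatocyte markers rose and 4 fell (8.77 to 9.11 against 8.15 to 8.49). In all 4 groups Cyp2e1, Ttr, Serpina1a, Apob and Alb of this list had means above the array medians (8.16 to 17.65). Ahsg lay between 4.05 and 4.26. Apoa1, Cps1 and Fabp1 lay between 2.98 and 3.75, below the lower quartiles of the arrays (3.91 to 4.03). The list was thus not raised as a set, and whether its bright genes came from hepatocytes was not tested. The part of hepatocyte transcripts in the values of Cp and Hamp was not tested.

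The same injury under anti-miR-22, in arrays that share none with the mock comparison, had 4 members higher (Cp, Slc40a1, Slc39a14 and Ftl1), 3 lower (Aco1, Ireb2 and Slc11a2) and 3 not called (Tfrc, Fth1 and Hamp). Of all probes 37.4% were called, 19.8% higher and 17.6% lower, and the member median was 0.29 against 0.00 for all probes. 6 members passed in both glycerol comparisons, each in the same direction. The share of all probes that passed in both was not counted, so this number has no background to be read against. In 7 of 10 members the arrays of sham anti-miR-22 and rhabdomyolysis anti-miR-22 did not overlap, where 23.8% of all probes did so.

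**Figure D2:**
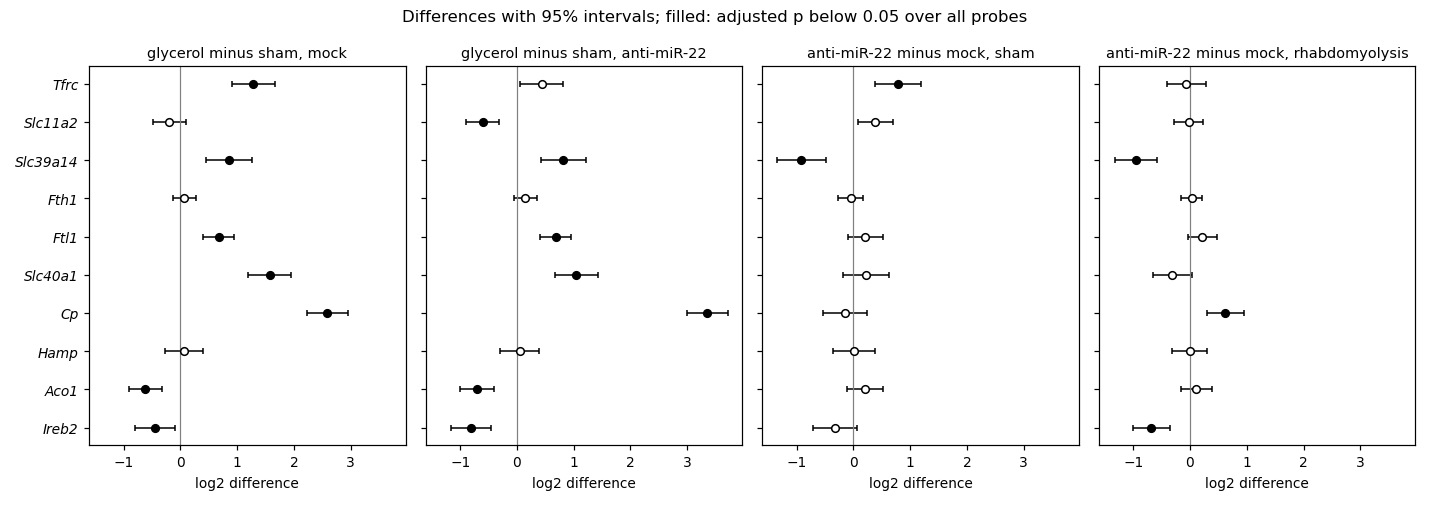
Log2 differences (horizontal axis) of the 10 iron genes (vertical axis) in 4 comparisons from the limma fit to all 24 arrays, with 95% intervals; filled points passed an adjusted p of 0.05 over all probes. Cp has the largest differences, 2.59 and 3.36 with glycerol, and Slc39a14 is the member with filled points in all 4 panels.

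Cp was at 10.09, 9.83, 10.74, 9.88 and 10.21 in the sham anti-miR-22 arrays, and its lowest, median and highest values in the rhabdomyolysis anti-miR-22 arrays were 13.02, 13.51 and 13.95. The groups lay far apart, with a 10.2-fold rise (3.36 ± 0.17, adjusted p = 5.17e-16). Slc40a1 was at 11.38, 11.46, 11.23, 11.09 and 11.19 against a range of 11.61 to 12.85 with a median of 12.51. It rose 2.06-fold (1.05 ± 0.18, adjusted p = 2.33e-05), and rhabdomyolysis anti-miR-22 array 2 was the lowest of the injured arrays. Ftl1 rose 1.60-fold (0.68 ± 0.14, adjusted p = 0.000152), from 17.75 to 18.08 in sham to 17.96 to 18.85 in injured arrays, again with array 2 the lowest and inside the sham range. Slc39a14 rose 1.77-fold (0.82 ± 0.20, adjusted p = 0.00111) from a lower start than under mock.

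Among the falls, Slc11a2 was at 11.07, 11.14, 10.90, 10.85 and 11.10 in sham anti-miR-22 arrays and between 9.97 and 10.60, median 10.47, in the injured ones. All injured arrays were below all sham arrays (1.52-fold, -0.61 ± 0.14, adjusted p = 0.000724). Ireb2 fell 1.75-fold (-0.81 ± 0.18, adjusted p = 0.000364) and Aco1 1.63-fold (-0.70 ± 0.15, adjusted p = 0.00021), both with no overlap. The 10 proximal tubule markers all fell in this comparison (mean level 16.99 to 17.28 against 15.03 to 15.71). So did all 7 of the thick limb and distal tubule (median difference -3.16, mean level 14.48 to 14.59 against 10.03 to 10.55) and 5 of 7 of the collecting duct (median -1.43, 10.01 to 10.40 against 8.81 to 9.22). The part of these lists in the falls of Slc11a2, Ireb2 and Aco1 was not tested. Tfrc had a difference of 0.44 ± 0.18 that did not pass (limma adjusted p = 0.0645, 95% interval 0.06 to 0.81) and that passed in 7 of 32 alternatives (adjusted p 0.0343 to 0.16). Fth1 was higher in all 7 injured arrays (19.70 to 19.76) than in all 5 sham arrays (19.42 to 19.64), although its difference of 0.14 ± 0.10 did not pass (limma adjusted p = 0.281). Hamp differed by 0.05 ± 0.17 (limma adjusted p = 0.865, 95% interval -0.29 to 0.39).

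Anti-miR-22 was then set against mock in sham kidneys, to ask what the inhibitor did without injury. Tfrc rose and Slc39a14 fell, and the other 8 members did not pass the test; of all probes 7.16% were called, 3.85% higher and 3.31% lower. Tfrc was at 9.75, 9.51, 9.68, 10.07 and 9.56 in the sham anti-miR-22 arrays against the sham mock values of 8.57 to 9.54 given above. The groups met at sham mock 3, and the rise was 1.72-fold (0.78 ± 0.20, limma adjusted p = 0.011). This rise and that with glycerol under mock are both measured against the same sham mock arrays. Slc39a14 was at 9.15, 9.12, 8.88, 8.70 and 8.59 in the sham anti-miR-22 arrays, all below the sham mock range of 9.35 to 10.38. It fell 1.89-fold (-0.92 ± 0.21, adjusted p = 0.00519) and was the 1 member whose groups did not overlap, as in 8.27% of all probes. Slc11a2 differed by 0.39 ± 0.15 and did not pass over all probes (limma adjusted p = 0.138, 95% interval 0.08 to 0.70). The intervals of the remaining 7 members all included 0, with differences from -0.32 for Ireb2 to 0.22 for Slc40a1.

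In rhabdomyolysis kidneys, anti-miR-22 against mock gave 1 member higher (Cp) and 2 lower (Slc39a14 and Ireb2), with 19.6% of all probes called, 9.48% higher and 10.2% lower. Slc39a14 had lowest, median and highest values of 9.21, 9.80 and 10.19 with anti-miR-22 and of 10.06, 10.68 and 11.18 with mock. The ranges met at rhabdomyolysis mock 7 and rhabdomyolysis anti-miR-22 array 7, and the fall was 1.93-fold (-0.95 ± 0.18, limma adjusted p = 0.000194). Slc39a14 was the 1 member called in both comparisons of the oligonucleotides, which share no arrays. How many of all probes were called in both was not counted. Ireb2 values with anti-miR-22 were 10.11, 10.55 and 10.66 (lowest, median and highest), all below the mock range that began at 10.69. The fall was 1.60-fold (-0.68 ± 0.16, adjusted p = 0.00218), and no other member's groups were apart (7.37% of all probes were). Cp rose 1.54-fold (0.62 ± 0.16, adjusted p = 0.00456), with 13.02 to 13.95 under anti-miR-22 against 12.60 to 13.17 under mock.

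The remaining 7 members did not pass. Slc40a1 differed by -0.31 ± 0.17 (limma adjusted p = 0.22, 95% interval -0.65 to 0.03) and Ftl1 by 0.22 ± 0.13 (adjusted p = 0.255, interval -0.04 to 0.48). Without rhabdomyolysis anti-miR-22 array 2, in which Ftl1 was lowest, the Ftl1 difference was 0.32 and passed (adjusted p = 0.0389). Tfrc differed by -0.07 ± 0.17 (interval -0.41 to 0.28), Slc11a2 by -0.03 ± 0.13, Aco1 by 0.11 ± 0.13, Fth1 by 0.03 ± 0.09 and Hamp by -0.01 ± 0.15. Of 10 proximal tubule markers 5 were lower and 1 higher with anti-miR-22 here (mean level 15.03 to 15.71 against 15.43 to 16.22). Of 7 thick limb and distal tubule markers 1 was lower, and of 7 collecting duct markers 2 were higher and 1 lower. The part of these lists in the fall of Ireb2 was not tested. Of 9 genes listed as hepatocyte markers 3 were lower and 1 higher (7.90 to 8.15 against 8.15 to 8.49), beside the higher Cp. Their part in the Cp value was not tested.

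**Figure D3:**
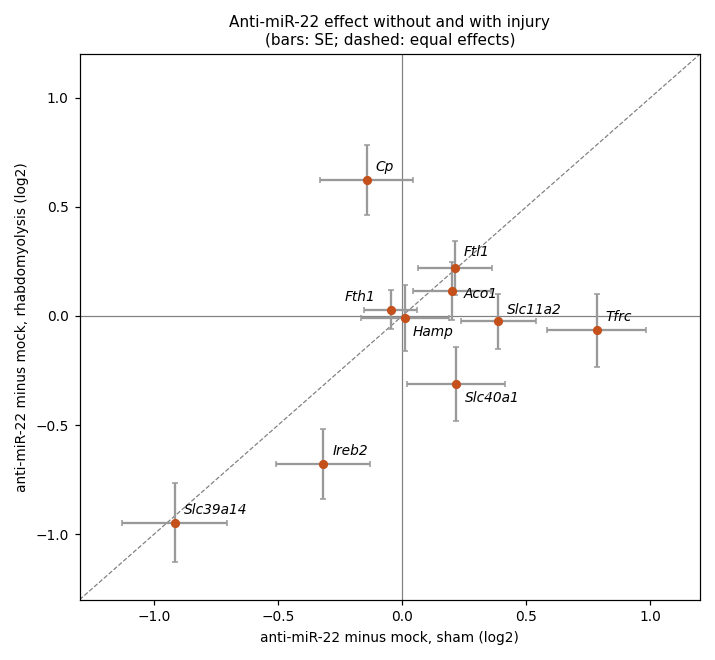
Anti-miR-22 minus mock in sham kidneys (horizontal axis, log2) against the same in rhabdomyolysis kidneys (vertical axis, log2) for the 10 iron genes; bars are standard errors and the dashed line marks equal effects. Slc39a14 lies on the line near -0.92 and -0.95, while Tfrc (0.78 and -0.07) and Cp (-0.14 and 0.62) lie off it.

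Whether the inhibitor acted differently in injured and in sham kidneys was tested as the difference between these effects. By limma 0 of 10 members and 0.383% of all probes were called, while 3 members had an unadjusted p below 0.05, as did 12.4% of all probes. These were Tfrc (-0.85 ± 0.26, limma adjusted p = 0.126), Cp (0.77 ± 0.25, adjusted p = 0.151) and Slc11a2 (-0.41 ± 0.20, adjusted p = 0.39). A different effect in injured and sham kidneys was therefore not shown for any member. For Slc39a14 the difference was -0.03 ± 0.28 (adjusted p = 0.983), with a 95% interval of -0.60 to 0.54 that leaves room for unequal effects.

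The other iron genes, 82 measured of 87 listed, had 22 members higher and 23 lower with glycerol under mock and 24 higher and 23 lower under anti-miR-22, with medians of -0.03 and -0.02. Of all probes 18% were higher and 16.4% lower in the former comparison and 19.8% and 17.6% in the latter. In the uptake list (15 genes) 3 rose and 3 fell under mock. Steap1 and Steap2, of a family of metalloreductases, rose 18.3-fold (4.19 ± 0.23) and 4.94-fold (2.31 ± 0.16). Slc39a8, the closest relative of Slc39a14 among metal importers, fell 4.87-fold (-2.28 ± 0.14, limma adjusted p = 4.09e-14), opposite to Slc39a14. Cubn, encoding a receptor that takes up filtered proteins in the proximal tubule, fell by 1.53 ± 0.16. Cubn and Lrp2 stand in both this list and that of the proximal tubule markers, so their falls are counted in both. Under anti-miR-22 the same list had 4 higher and 3 lower, among them Steap1 (4.49 ± 0.23) and Slc39a8 (-2.60 ± 0.14).

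**Figure D4:**
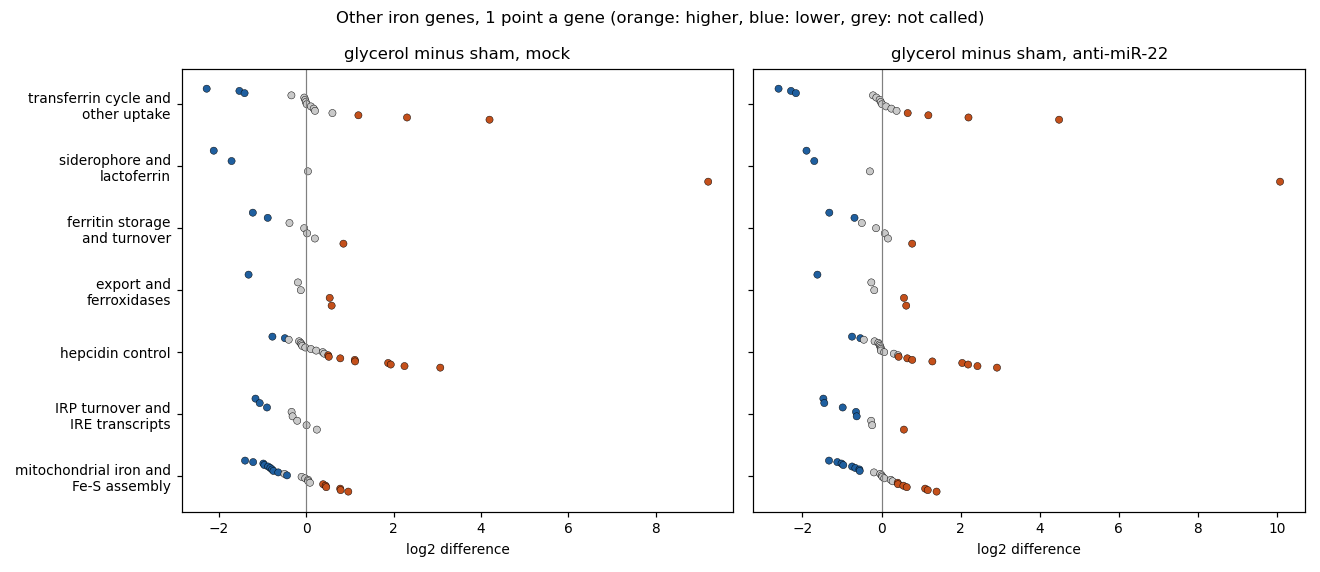
Log2 differences (horizontal axis) of the other listed iron genes, 1 point a gene grouped by list, for glycerol under mock (left) and under anti-miR-22 (right); orange genes were called higher, blue lower and grey not called by limma. Most lists hold genes on both sides of 0, and the far point in the siderophore list is Lcn2 (9.20, or 10.27 without sham mock 1, and 10.08).

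Among siderophore genes, Lcn2, the siderophore-binding protein gene, rose by 9.20 ± 0.54 (10.27 ± 0.18 without sham mock 1) while its receptor gene Slc22a17 (-1.71 ± 0.21) and Bdh2, proposed to make a mammalian siderophore (-2.12 ± 0.14), fell under mock. In the list of ferritin storage and turnover (7 genes), Pcbp1, an iron chaperone that loads ferritin, rose by 0.85 ± 0.12. Ncoa4, the receptor that takes ferritin to lysosomes, fell by 0.89 ± 0.17 and Prom2 by 1.23 ± 0.16. Of 5 genes in the export list, the ferroxidase gene Heph fell 2.5-fold (-1.32 ± 0.20) where Cp rose. The heme exporter gene Flvcr1 (0.58 ± 0.21) and Rnf217, whose product marks ferroportin for breakdown (0.53 ± 0.19), rose. Both calls were near the threshold: that of Flvcr1 ended without sham mock 1 or 3 or rhabdomyolysis mock 2 or 7 (limma adjusted p up to 0.127), and that of Rnf217 without sham mock 2 or 5 or rhabdomyolysis mock 3, 4 or 5 (up to 0.117).

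Of 21 genes of hepcidin control 9 rose, 2 fell and 10 did not pass with glycerol under mock, with a median of 0.37, where 34.4% of all probes were called. Under anti-miR-22 8 rose, 2 fell and 11 did not pass, with a median of 0.07, where 37.4% of all probes were called. Stat3, which carries interleukin signals to the Hamp promoter in liver, rose 8.38-fold under mock (3.07 ± 0.15). Il6 was called higher, with a mean of 5.50 in rhabdomyolysis mock arrays; its sham mock mean of 3.25 lies below the lower quartile of every array, so no size is given. Bmp6, the ligand that reports iron stores to hepatocytes, rose 3.66-fold (1.87 ± 0.19) and Id1, a target of that pathway, 3.82-fold (1.93 ± 0.25). The second hepcidin gene, Hamp2, differed by 0.22 ± 0.24 (limma adjusted p = 0.528).

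Promoter stretches of Hamp, Cp and Tfrc are shown because Hamp did not pass beside its regulators while Cp and Tfrc rose. Windows of 250 bases before to 50 after each annotated start (RefSeq, GRCm38.p6) were found for 7 of 10 members, 10 windows in all. Both strands were searched for the BMP-responsive element GGCGCC, a STAT site (TTCNNNGAA), an AP-1 site (TGANTCA), the hypoxia response core (ACGTG) and the antioxidant response element (TGACNNNGC), which occur in 11.9%, 8.3%, 7.81%, 19.6% and 12.4% of all 32851 windows. Matches are in capitals; none of them overlaps another, and a match is a description and not a site in use. Hamp holds, from left to right, the BMP-responsive, STAT and AP-1 letters, Cp an AP-1 match and Tfrc the hypoxia core at its first annotated start. A BMP-responsive match further upstream in Tfrc is not shown.
Hamp, chr7:30944100-30944159, minus strand: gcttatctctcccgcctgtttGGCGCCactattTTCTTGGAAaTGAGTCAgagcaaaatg
Cp, chr3:19956854-19956913, plus strand: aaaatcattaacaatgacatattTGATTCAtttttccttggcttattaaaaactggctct
Tfrc, chr16:32608839-32608898, plus strand: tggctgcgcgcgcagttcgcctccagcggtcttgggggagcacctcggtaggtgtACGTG

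In the list of iron regulatory protein turnover and transcripts with iron-responsive elements, 3 of 8 measured genes fell with glycerol under mock, and 5 fell and 1 rose under anti-miR-22. The share under mock was near the 34.4% of all probes called, and under anti-miR-22 37.4% of all probes were called. Alas2, the erythroid heme synthesis gene and also 1 of the 4 red cell markers, fell by 1.17 ± 0.17, Sdhb of the respiratory chain by 1.07 ± 0.12 and the hypoxia factor gene Epas1 by 0.90 ± 0.15 under mock. Fbxl5, whose product marks the iron regulatory proteins for breakdown, rose with anti-miR-22 in sham (0.61 ± 0.15, limma adjusted p = 0.00875) and in rhabdomyolysis kidneys (0.93 ± 0.13, adjusted p = 1.56e-06), the latter beside the fall of Ireb2. Cul1, the scaffold of the same ligase, fell in both (-1.05 ± 0.16 and -1.29 ± 0.13). The Ireb2 values are of mRNA, Ireb2 did not pass in sham kidneys, and a link with Fbxl5 was not tested.

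Iron genes outside the members also differed between the oligonucleotides, with 5 higher and 7 lower in sham kidneys and 14 higher and 14 lower in rhabdomyolysis kidneys, of 82, where 7.16% and 19.6% of all probes were called. Trf, the transferrin gene, fell 2.01-fold and 1.92-fold with anti-miR-22 (limma adjusted p = 0.0147 and 0.00239), in sham kidneys beside the rise of its receptor gene Tfrc. Without sham mock 3, the Trf fall in sham kidneys was -0.72 ± 0.24 and did not pass (limma adjusted p = 0.0686). Ncoa4 rose in both (0.69 ± 0.18 and 0.89 ± 0.16), as did the transporter gene Abcg2 (1.06 ± 0.14 and 1.00 ± 0.12). Smad1 (0.65 ± 0.14 and 0.82 ± 0.12) rose and Bmpr2 (-0.63 ± 0.15 and -1.20 ± 0.12), a receptor of bone morphogenetic proteins, fell in both. Of 22 measured genes of mitochondrial iron and iron-sulfur assembly, 6 rose and 10 fell with glycerol under mock, and 7 rose and 8 fell under anti-miR-22, beside 34.4% and 37.4% of all probes called. Cisd1, an outer membrane iron-sulfur protein gene, fell by 1.40 ± 0.20 and Nfs1, the cysteine desulfurase of cluster assembly, by 1.22 ± 0.13 under mock. Iscu, the scaffold of cluster assembly, fell by 0.96 ± 0.15 under mock and was 0.91 ± 0.14 higher with anti-miR-22 than with mock in injured kidneys. Both of these differences use the same rhabdomyolysis mock arrays, with opposite sign, and so are not independent.

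Genes whose values ran most like a member's over the 24 arrays are given as a description, and these correlations include the differences between groups. Cp was closest to Mgst1 (Pearson r = 0.98) and Ddx21 (0.98), Slc40a1 to Lrg1 (0.96) and Cd14 (0.95), and Ftl1 to Mir692-3 (0.98) and Dusp6 (0.95). These members had the closest matches, and the highest r of the others ran from 0.71 for Hamp to 0.93 for Ireb2. In the gene table Mir692-3 lies inside Ftl1-ps1, a pseudogene of the light chain. Once group means were removed, Slc40a1 still ran closest to Lrg1 (0.87) and Ftl1 to Mir692-3 (0.94), while Cp was closest to Kdm1b (0.74) and Slc39a14 to Gm9767 (0.76).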

How the data were processed

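Total RNA of 24 halved kidneys was measured on Mouse Clariom S arrays, read in 1 colour. The authors deposited 1 log2 value per probe and array. The submitters' processing notes name Partek 6.4 and RMA but give no settings; RMA equalises arrays and can compress differences of dim and of very bright probes. Groups came from the sample titles. Of 22206 lines, 1 without values on all arrays was left out. Of 22205 probes 19572 had 1 gene symbol and 2633 none, and a gene with several probes was read from the brightest.

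A linear model with 1 mean for each of the 4 groups was fitted in R 4.3.3 by lmFit and eBayes of limma 3.58.1. Tests were two-sided, with Benjamini-Hochberg adjustment over all probes and a threshold of 0.05, and the code was checked on simulated data. Folds were taken from log2 differences. Arrays give no read depth; their number limits the precision. All 10 members were tested in every comparison, and members not named in a comparison are held in its counts. From each further list at most 4 called genes of largest change and up to 2 uncalled ones could be named. For each member the 2 genes with the highest correlation were found, and they are named for some members only. Members and lists were chosen with earlier results of these data known. Alternatives were trend and robust moderation, other scalings, filters on dim probes, a replicate block, array weights, fits to 2 groups and the omission of each array.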

Additional observations from a re-analysis of the deposited data

Results flagged for a closer look

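Each of the 10 genes was looked at in each of the 4 groups for an array far from the rest (a gap to its nearest neighbour that takes up an unusual share of the group's range), and 6 of 40 such sets held one; chance gives about 1 in 20. Tfrc was 10.74 in rhabdomyolysis anti-miR-22 array 1, where the others lay between 9.85 and 10.19. Fth1 was 19.42 in sham anti-miR-22 array 5 (others 19.60 to 19.64) and 19.50 in rhabdomyolysis mock array 6 (others 19.70 to 19.75). Aco1 was 12.62 in rhabdomyolysis anti-miR-22 array 6 (others 12.81 to 12.94). Cp was 10.76 in sham mock array 3 (others 10.12 to 10.29). Hamp was 5.67 in rhabdomyolysis anti-miR-22 array 4 (median 6.46, highest 6.72).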

How the results depend on the processing

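The members called were counted under 8 other settings and under the omission of each of the 24 arrays. With glycerol under mock the count was 7 as reported and 6 to 7 elsewhere, the member lost being Ireb2, which kept its call when sham mock 1, sham anti-miR-22 2, 3, 4 or 5, rhabdomyolysis mock 5 or 6 or rhabdomyolysis anti-miR-22 4 was omitted; under anti-miR-22 it was 7 and 7 to 8, the member gained being Tfrc (in 3 of the 8 settings, and without array 3 of sham mock, 4 of sham anti-miR-22, 7 of rhabdomyolysis mock or 4 of rhabdomyolysis anti-miR-22). For anti-miR-22 against mock it was 2 throughout in sham kidneys and 3, or 4 with Ftl1 in 1 omission, in rhabdomyolysis kidneys. For the difference between these effects it was 0 throughout, while the count over all probes was 85, 28 to 138 when 1 array was omitted and 89 to 279 under the other settings. No called member changed direction. No paired origin of same-numbered arrays is stated, and of 32 pairs 1 correlated above 0.1 in deviations from the group means; with the replicate number as a block the members called were 7, 7, 2, 3 and 0, the same genes as without it. 6 of 24 arrays correlated best with an array of their own number. The choice between probes gave no value, because each member has 1 probe, and the fit to 2 groups gives none for the difference. No signal over background was used here, which limits dim genes such as Hamp. Fth1 lay near the top of the scale, and whether its probe can register a rise there was not tested. For the other iron genes the omission of each array was added after seeing the data, and their calls with glycerol under mock, 22 higher and 23 lower, became 19 to 23 higher and 22 to 25 lower.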
